A study of Mus musculus with 12 samples.

Results

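The 10 genes described here carry out or switch on the presentation of peptides by the major histocompatibility complex (MHC). They were chosen by gene name from the 55862 entries of the deposited table, and each name matched 1 entry. Of these genes, 6 serve class I presentation (H2-K1, H2-D1, B2m, Tap1, Psmb8 and Nlrc5) and 4 serve class II presentation (Cd74, H2-Aa, H2-Ab1 and Ciita).

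RNA of C57BL/6 mouse brain cells was sequenced in 12 libraries, 3 in each of 4 groups. AST were astrocytes at 0 days of incubation, the negative control of the design. A-iSC were cells induced from such astrocytes in 3D spheres over 5 days of incubation. P56-NSC and P0-NSC, called neural progenitor cells in the protocol and named after NSC in the sample titles, came from brain and served as positive controls. No genotype other than the C57BL/6 strain is given, and no treatment is given beside the incubation. The labels do not spell out P56 and P0 or say how the brain cells were isolated or cultured. They are also silent on whether replicate libraries were made from different animals or cultures. A p-value here therefore reflects the scatter of these libraries alone, and that scatter may be technical.

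Class I molecules are displayed by nearly all nucleated cells. A heavy chain, such as H2-K1 or H2-D1, pairs with the light chain B2m and holds a peptide that the proteasome cut in the cytosol and the transporter of Tap1 and Tap2 moved into the endoplasmic reticulum. Class II molecules, pairs of an alpha and a beta chain such as H2-Aa and H2-Ab1, are made mainly by professional antigen-presenting cells, and in the brain by activated microglia and border macrophages. Cd74, the invariant chain, guards their groove until lysosomal proteases remove it. The coactivators Nlrc5 (class I) and Ciita (class II) do not bind DNA themselves. They dock on an enhanceosome that recognises the X and Y boxes ahead of MHC genes, and interferon gamma induces both.

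Promoter windows from RefSeq (GRCm38.p6) were searched for 6 of the 10 genes. Nlrc5, H2-Ab1 and Ciita had no window, and Cd74 was left out of the search by choice. The windows printed here represent the light chain, a class I heavy chain and a class II chain, because each holds a match to the X2 core and to the Y box. Each holds the 150 bases before an annotated start, 5′ to 3′ on the gene's strand, with matches in capitals. The motifs were the interferon-stimulated response element (GAAA, any 2 bases, GAAA), the Y box GATTGG, and TGACG, the core of the X2 box, each searched on both strands. The gamma-activated site TTCNNNGAA was searched too and has no match in these 3 windows.
B2m, chr2:122147537-122147686, plus strand: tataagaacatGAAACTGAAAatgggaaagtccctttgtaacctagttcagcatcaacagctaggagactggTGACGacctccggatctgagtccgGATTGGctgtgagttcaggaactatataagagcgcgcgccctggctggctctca
H2-Aa, chr17:34287824-34287973, minus strand: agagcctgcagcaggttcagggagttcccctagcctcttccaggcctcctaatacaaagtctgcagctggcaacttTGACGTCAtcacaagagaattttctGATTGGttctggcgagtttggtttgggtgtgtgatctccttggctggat
H2-K1, chr17:34000334-34000483, minus strand: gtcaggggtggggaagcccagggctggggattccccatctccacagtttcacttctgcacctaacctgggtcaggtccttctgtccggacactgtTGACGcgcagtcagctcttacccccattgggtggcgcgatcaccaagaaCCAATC

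In B2m, 19 bases lie between the X2 core and the Y box, and in H2-Aa 20 bases. In H2-Aa the X2 cores on both strands overlap, which gives the capitals TGACGTCA. In H2-K1 the match to the Y box pattern, on the opposite strand, lies 44 bases after the X2 core and is written CCAATC. Between them the gene's strand holds cattgg, which differs from GATTGG in its first base and so was not a match. Which of these stretches serves as the Y box of H2-K1 was not tested. RefSeq lists 2 starts for H2-K1, and the window belongs to the more downstream of them. Over windows from 250 bases before to 50 bases after a start, the Y box was matched in 5 of 6 of these genes and in 16.1% of 32851 promoters, and the X2 core in 5 of 6 and in 20.8%. Both were matched together in 3.84% of promoters, and in B2m, H2-Aa, H2-D1, H2-K1 and Tap1. The interferon-stimulated response element was matched in B2m alone among the 6 (3.44% of promoters) and the gamma-activated site in Psmb8 alone (8.30%). These matches describe letters, not occupied sites.

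Whole reads recovered from the table numbered 17077780 to 24452419 a library, so that a single read per kilobase of gene equals 0.0343 to 0.0623 FPKM (fragments per kilobase, scaled to library depth). Levels below are FPKM, which are per gene length, and log2 changes are differences in log2(FPKM + 1) with their standard errors, which understate the change of low genes. A gene was tested with limma when it reached 1 FPKM in at least 3 libraries, with calls at an adjusted p under 0.05 (Benjamini-Hochberg, 15747 genes). Of the 10 genes 8 were tested. H2-Aa reached 1 FPKM in 1 library and Ciita in 0. Nlrc5 passed the filter only through the 3 A-iSC libraries, H2-Ab1 through those and 2 P56-NSC libraries, and Cd74 through the 6 libraries of A-iSC and P56-NSC, so for them a difference was built into the filter. Psmb8 was below 1 FPKM in every P0-NSC library and passed through the other groups. Its differences from P0-NSC were thus built into the filter too. The counts of called genes below describe the tested genes and support nothing about all 10.

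Some libraries went against their labels or stood apart. The summed level of 5 oligodendrocyte markers was 3350 to 4039 FPKM in P56-NSC and at most 80.5 FPKM in every other library, while the progenitor marker Nes was at 3.48 to 3.91 FPKM in P56-NSC, 26.1 to 27.9 in P0-NSC and 64.4 to 209 in the cultured groups. Nes does not stand for all 6 progenitor markers listed, of which 2 were higher and 4 lower in P56-NSC than in AST (37.1% and 37.0% of all tested genes). Among them Hes5 was at 15.6 to 24.3 FPKM in P56-NSC and 0.306 to 0.687 FPKM in AST. The summed level of 5 red blood cell markers was 162.6 to 565 FPKM in both NSC groups and at most 0.548 FPKM in AST and A-iSC. In AST, 6 astrocyte markers, none of them at 0, summed to 127.4 to 147.5 FPKM (897 to 1949 in A-iSC), and 6 fibroblast and mural cell markers summed to 1869 to 2256 FPKM, against at most 132.5 FPKM in every other library. Acta2 held 1690 to 2113 FPKM of the latter sum in AST. Against AST, 3 of these 6 were higher and 2 lower in P0-NSC, 2 higher and 4 lower in P56-NSC, and 1 higher and 4 lower in A-iSC. Of all tested genes, 35.9% were higher and 38.3% lower in P0-NSC, 37.1% and 37.0% in P56-NSC, and 28.1% and 30.8% in A-iSC. The part of these cell types in the MHC results was not tested. P56-NSC 3 stood apart from P56-NSC 1 and 2 in class II genes, and for Cd74 and H2-Ab1 the comparisons that use it are given with and without it. In deviations from the group means, AST 1 and 3 went with A-iSC 3, and AST 2 went with A-iSC 1 and 2, and within-set values are given where a call ends. Such deviations cancel within each group, so a split of some kind was built in. Scaling by total reads in place of the authors' scaling moved the median log2 change of all genes by 0.12 in A-iSC against AST, by -0.24 in P56-NSC against AST, by 0.20 in P0-NSC against AST, by 0.40 in A-iSC against P56-NSC and by -0.45 in P56-NSC against P0-NSC. Among called genes, the percentage higher then went from 47.7% to 61.0%, from 50.1% to 38.7%, from 48.4% to 58.8%, from 50.1% to 73.4% and from 51.0% to 27.3%, in that order.

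Class I genes had 1 order of levels that the groups largely shared: highest in A-iSC, then AST, then P56-NSC, then P0-NSC. The 4 class II genes followed another, being lowest in AST and P0-NSC and highest in A-iSC or in single P56-NSC libraries. The plot of all 10 genes by library shows both patterns.

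**Figure D1:**
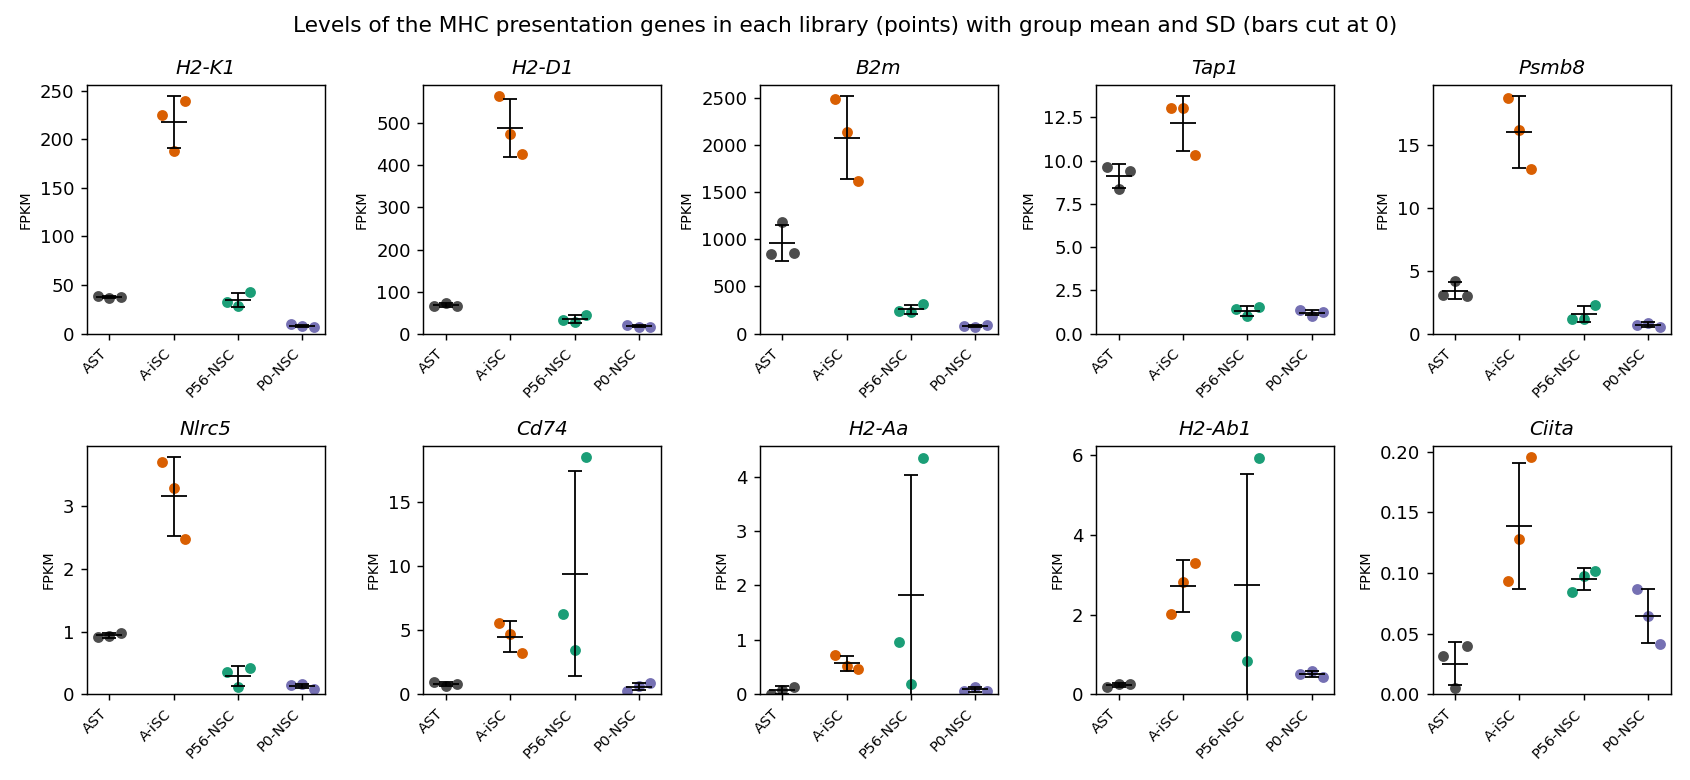
FPKM (y axis, linear, from 0) of the 10 genes in each of the 12 libraries (points) by group, with the mean and SD of 3 libraries, and bars cut at 0. The 3 A-iSC libraries lie above all others for H2-K1, H2-D1, B2m, Tap1, Psmb8 and Nlrc5, and P56-NSC 3 is the highest library for Cd74, H2-Aa and H2-Ab1.

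B2m (ENSMUSG00000060802, chr2:122147686-122153083, plus strand, GRCm38) encodes the light chain shared by class I molecules. Its levels were 848, 1184 and 859 FPKM in AST, 2482, 2136 and 1617 FPKM in A-iSC, 234, 223 and 313 FPKM in P56-NSC and 82.1, 73.4 and 90.8 FPKM in P0-NSC. No group overlapped another, so B2m stepped down from A-iSC through AST and P56-NSC to P0-NSC. It rose by 1.10 ± 0.20 in A-iSC against AST (limma adjusted p = 0.000533), or 2.16-fold in the means. P0-NSC lay furthest below AST, at -3.52 ± 0.20 (limma adjusted p = 1.36e-08).

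H2-K1 and H2-D1 encode the classical class I heavy chains of this strain, the chains that hold the peptide for CD8 T cells. H2-K1 (ENSMUSG00000061232, chr17:33996017-34000347, minus strand) was at 38.4, 36.8 and 37.6 FPKM in AST, 225, 188 and 239 FPKM in A-iSC, 33.0, 28.8 and 43.0 FPKM in P56-NSC, and 9.49, 7.62 and 7.03 FPKM in P0-NSC. The A-iSC libraries lay above and the P0-NSC libraries below all others, while AST and P56-NSC overlapped. H2-K1 rose by 2.50 ± 0.15 in A-iSC against AST (limma adjusted p = 5.66e-08), 5.79-fold in the means. Between P56-NSC and AST it did not pass the test (-0.12 ± 0.15, limma adjusted p = 0.478), and quantile normalization gave the other sign (0.06) while scaling by total reads gave a call (-0.45, adjusted p = 0.0213).

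H2-D1 (ENSMUSG00000073411, chr17:35262730-35267499, plus strand) was at 65.8, 73.4 and 65.2 FPKM in AST, 564, 476 and 428 FPKM in A-iSC, 31.7, 27.3 and 44.8 FPKM in P56-NSC, and 19.6, 15.8 and 16.05 FPKM in P0-NSC. No groups overlapped. H2-D1 rose by 2.82 ± 0.17 in A-iSC against AST (limma adjusted p = 5.75e-08), and fell in P56-NSC against AST by 0.99 ± 0.17 (limma adjusted p = 0.000202). Of the 50-base words of its transcripts 12.8% also occur in transcripts of other genes, chiefly H2-Q1, H2-K1 and H2-Q7, and of those of H2-K1 9.63%, so reads of these chains can be split between near copies.

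The balance of these heavy chains differed between the groups. H2-D1 exceeded H2-K1 by 1.82 ± 0.16 times in AST, 2.27 ± 0.42 times in A-iSC and 2.14 ± 0.12 times in P0-NSC, but was at 0.98 ± 0.05 of it in P56-NSC (mean ± SD of the ratios of 3 libraries). Every P56-NSC library had a ratio of 0.946 to 1.04, and every other library 1.71 or more. B2m was at 25.7 ± 5.6 times the level of H2-K1 in AST and at 9.70 ± 2.56, 7.38 ± 0.33 and 10.4 ± 2.23 times in A-iSC, P56-NSC and P0-NSC. Per unit of H2-K1, B2m was thus most abundant in AST. These ratios were chosen after their values were seen and are given without a test.

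**Figure D2:**
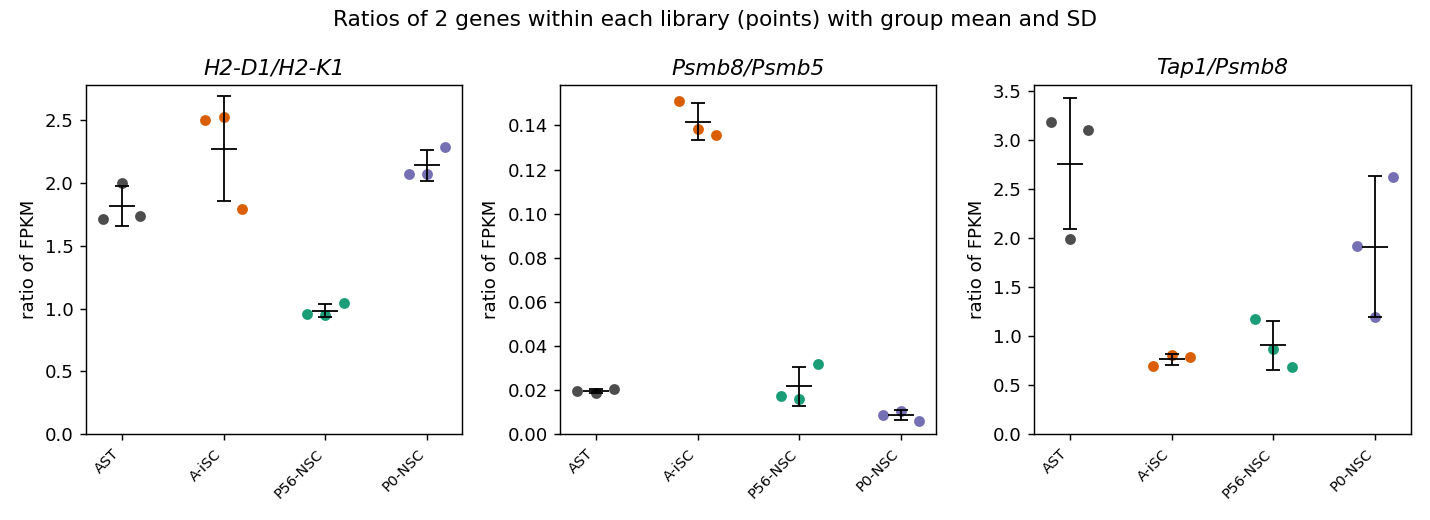
Ratio of the FPKM of 2 genes within each library (points; y axis linear, from 0) by group, with the mean and SD of 3 libraries. H2-D1/H2-K1 is near 1 in P56-NSC alone, Psmb8/Psmb5 is highest in A-iSC, and Tap1/Psmb8 is highest in AST 1 and AST 3.

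Psmb8 and Tap1 supply the peptides. Psmb8 (ENSMUSG00000024338, chr17:34197721-34201454, plus strand) is a catalytic subunit of the immunoproteasome, which replaces the constitutive subunit Psmb5. Psmb8 was at 3.03, 4.19 and 3.03 FPKM in AST, 18.8, 16.2 and 13.1 FPKM in A-iSC, 1.19, 1.14 and 2.28 FPKM in P56-NSC, and 0.698, 0.874 and 0.483 FPKM in P0-NSC. No groups overlapped, and the order was that of B2m. It rose by 1.94 ± 0.18 in A-iSC against AST (limma adjusted p = 2.65e-06), 4.69-fold in the means.

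Psmb5, the subunit that Psmb8 replaces, fell by 0.61 ± 0.15 in the same comparison (limma adjusted p = 0.0046), a call that ended with quantile normalization (-0.21 ± 0.0955, adjusted p = 0.0888). The ratio of Psmb8 to Psmb5 was accordingly 0.142 ± 0.008 in A-iSC, against 0.0197 ± 0.0011 in AST, 0.0217 ± 0.0087 in P56-NSC and 0.00860 ± 0.0022 in P0-NSC. Even in A-iSC, Psmb5 was thus the more abundant transcript per length in each library. Of the 3381 exonic bases of Psmb8, 498 overlap Gm20496 on the opposite strand, and the library kit does not mark strand, so reads there cannot be told apart.

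Tap1 (ENSMUSG00000037321, chr17:34187553-34197225, plus strand), a subunit of the peptide transporter, was at 9.64, 8.33 and 9.38 FPKM in AST, 13.1, 13.1 and 10.3 FPKM in A-iSC, 1.40, 0.990 and 1.55 FPKM in P56-NSC, and 1.34, 1.04 and 1.27 FPKM in P0-NSC. The cultured groups lay far above the NSC groups, which overlapped each other. Against AST, Tap1 was lower by -2.13 ± 0.12 in P56-NSC and by -2.19 ± 0.12 in P0-NSC (limma adjusted p = 1.07e-08 and 1.11e-08). In A-iSC it rose by 0.37 ± 0.12 (limma adjusted p = 0.0197), and that call ended with a pseudocount of 0.1 (adjusted p = 0.0565), without AST 2 (0.0679), A-iSC 1 (0.0685) or A-iSC 2 (0.0709), and within the set of AST 1, AST 3 and A-iSC 3 (0.11 ± 0.16, adjusted p = 0.596). Tap1 shares 212 exonic bases with Psmb9 on the opposite strand.

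Nlrc5 (ENSMUSG00000074151, chr8:94434356-94527272, plus strand) is the coactivator of class I genes. It was at 0.913, 0.923 and 0.983 FPKM in AST, 3.70, 3.30 and 2.48 FPKM in A-iSC, 0.359, 0.117 and 0.415 FPKM in P56-NSC, and 0.149, 0.158 and 0.0898 FPKM in P0-NSC. These rest on 130 to 159 reads a library in AST and 564 to 666 in A-iSC, but on 16 to 58 reads in the NSC groups. The A-iSC libraries lay above and the AST libraries between them and the NSC groups, which overlapped. Nlrc5 rose by 1.09 ± 0.12 in A-iSC against AST (limma adjusted p = 9.24e-06), and limma-voom on the recovered reads, which uses no pseudocount of 1 FPKM, gave 1.72 ± 0.24 (adjusted p = 2.68e-05).

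In AST and P0-NSC, each of the 4 class II genes was below 1 FPKM in every library. Cd74 (ENSMUSG00000024610, on chromosome 18), the invariant chain, was at 0.924, 0.617 and 0.802 FPKM in AST, 5.58, 4.68 and 3.20 FPKM in A-iSC, 6.31, 3.45 and 18.5 FPKM in P56-NSC, and 0.286, 0.655 and 0.887 FPKM in P0-NSC. A-iSC and P56-NSC overlapped and both lay above AST and P0-NSC, which overlapped each other. P56-NSC 3 stood well above the other P56-NSC libraries. Cd74 rose by 1.60 ± 0.41 in A-iSC against AST (limma adjusted p = 0.00499) and by 2.27 ± 0.41 in P56-NSC against AST (limma adjusted p = 0.000285). Without P56-NSC 3 the second of these was 1.68 ± 0.24 (adjusted p = 9.28e-05). The first lost its call within the set of AST 1, AST 3 and A-iSC 3 (1.17 ± 0.68, adjusted p = 0.176).

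H2-Ab1 (ENSMUSG00000073421, chr17:34257689-34269419, plus strand) encodes the class II beta chain. It was at 0.186, 0.269 and 0.252 FPKM in AST, 2.01, 2.82 and 3.30 FPKM in A-iSC, 1.46, 0.825 and 5.93 FPKM in P56-NSC, and 0.511, 0.589 and 0.424 FPKM in P0-NSC. The AST libraries, with 8 to 14 reads each, were the lowest, P0-NSC lay above them, and A-iSC and P56-NSC overlapped above both. H2-Ab1 rose by 1.57 ± 0.36 in A-iSC against AST (limma adjusted p = 0.00282) and by 1.35 ± 0.36 in P56-NSC against AST (limma adjusted p = 0.00523). Within the set of AST 2, A-iSC 1 and A-iSC 2, both lost their calls (adjusted p = 0.0821 and 0.0711). A-iSC and P56-NSC did not pass the test between them (0.22 ± 0.36, limma adjusted p = 0.616), but without P56-NSC 3 H2-Ab1 was higher in A-iSC (0.79 ± 0.16, adjusted p = 0.00139) and its change in P56-NSC against AST was 0.78 ± 0.16 (adjusted p = 0.00114).

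H2-Aa (ENSMUSG00000036594, chr17:34282744-34287823, minus strand) encodes the partner alpha chain and was not tested. It was listed at 0, 0.0779 and 0.142 FPKM in AST, 0.718, 0.520 and 0.462 FPKM in A-iSC, 0.956, 0.197 and 4.33 FPKM in P56-NSC, and 0.0691, 0.136 and 0.0669 FPKM in P0-NSC. The A-iSC libraries, with 47 to 55 reads each, lay above all AST and P0-NSC libraries (0 to 15 reads). In P56-NSC the reads numbered 63, 12 and 271, so P56-NSC 3 held most of them, and without it the P56-NSC mean was 0.576 FPKM (n = 2). Limma-voom with no filter, an alternative added after the data were seen, gave 3.55 ± 1.35 in A-iSC against AST (adjusted p = 0.0579) and 4.33 ± 1.33 in P56-NSC against AST (adjusted p = 0.0151).

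Ciita (ENSMUSG00000022504, chr16:10480059-10528418, plus strand), the class II coactivator, was at 0.0313, 0.00517 and 0.0395 FPKM in AST, 0.0937, 0.128 and 0.196 FPKM in A-iSC, 0.0846, 0.0980 and 0.102 FPKM in P56-NSC, and 0.0871, 0.0648 and 0.0419 FPKM in P0-NSC. These are 1 to 7 reads in AST, 18 to 50 in A-iSC, 14 to 16 in P56-NSC and 11 to 19 in P0-NSC. The AST libraries lay below all others, and P56-NSC 3, highest for the class II chains and Cd74, did not stand out from P56-NSC 1 and 2. The same unfiltered limma-voom fit gave 2.65 ± 0.57 in A-iSC against AST (adjusted p = 0.00193) and 2.15 ± 0.61 in P56-NSC against AST (adjusted p = 0.00886). Ciita shares 329 of its 9535 exonic bases with Dexi on the opposite strand, where reads of the genes cannot be told apart.

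In A-iSC against AST, 8 of the 8 tested genes rose and 0 fell. Of all tested genes 58.9% were called, 28.1% upward and 30.8% downward. In P56-NSC against AST, 2 rose (Cd74 and H2-Ab1) and 5 fell (H2-D1, B2m, Tap1, Psmb8 and Nlrc5), where 74.1% of all tested genes were called, 37.1% upward and 37.0% downward. In P0-NSC against AST, 0 rose and the 6 class I genes fell, where 74.2% of all tested genes were called, 35.9% upward and 38.3% downward. Psmb8 and Nlrc5 were below 1 FPKM in every P0-NSC library and passed the filter through other groups. The filter thus sets part of that count of falls. These 3 comparisons share the AST libraries, as the plot of changes against AST shows side by side.

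**Figure D3:**
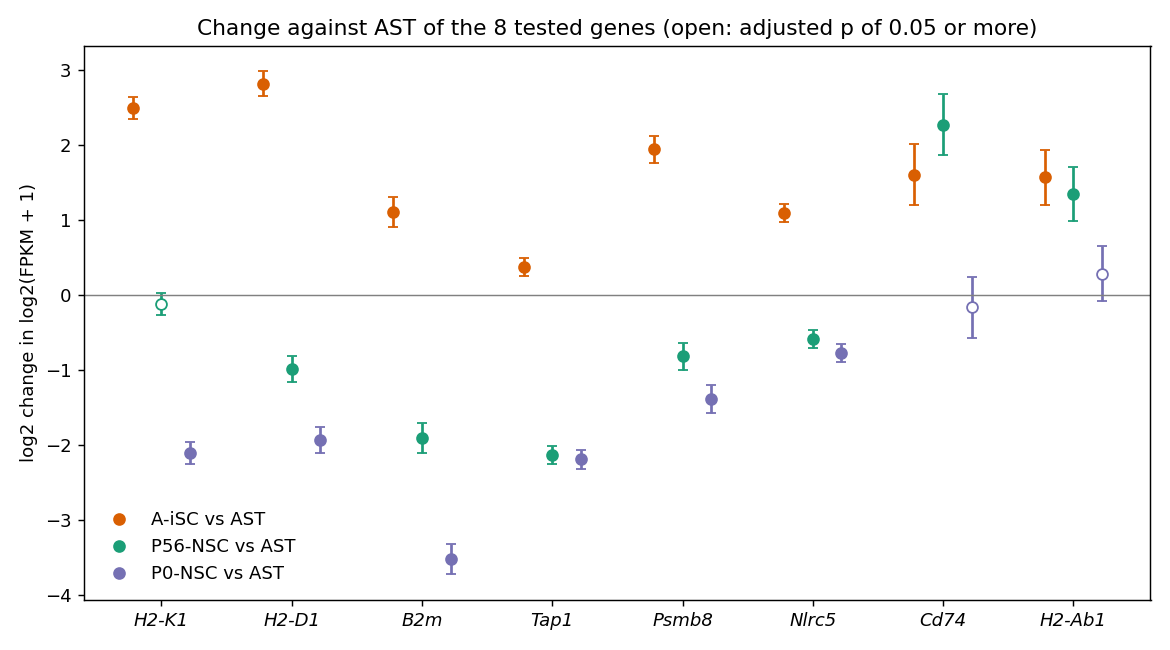
Log2 change in log2(FPKM + 1) against AST (y axis) of the 8 tested genes in A-iSC, P56-NSC and P0-NSC, with the limma standard error as bars, filled where the adjusted p is below 0.05. All A-iSC points lie above 0, the class I points of both NSC groups below it, and Cd74 and H2-Ab1 rise in P56-NSC but are not called in P0-NSC.

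A-iSC was compared with the positive controls too. Against P56-NSC, the 6 class I genes were higher in A-iSC (31.5% of all tested genes were, and 31.3% were lower). On the log2(FPKM + 1) scale H2-D1 was higher by 3.81 ± 0.17 and Nlrc5 by 1.68 ± 0.12 (limma adjusted p = 2.19e-09 and 1.37e-07). That scale compresses a gene as low as Nlrc5, for which limma-voom on the recovered reads gave 3.54 ± 0.35 (adjusted p = 8.42e-07). No class I gene overlapped between these groups, but the share of all tested genes without overlap was not counted, so this describes the 6 genes only. Cd74 (-0.67 ± 0.41, limma adjusted p = 0.171) and H2-Ab1 were not called. The Cd74 difference turned on single libraries: without P56-NSC 2 it was -1.15 ± 0.35 (adjusted p = 0.0156) and without P56-NSC 3 it was -0.08 ± 0.24 (adjusted p = 0.799).

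Against P0-NSC, 8 of the 8 tested genes were higher in A-iSC (32.6% of all tested genes were, and 34.7% were lower), among them H2-Ab1 by 1.28 ± 0.36 and H2-D1 by 4.75 ± 0.17 on the log2(FPKM + 1) scale (limma adjusted p = 0.00793 and 3.90e-10). Cd74, higher by 1.76 ± 0.41 (limma adjusted p = 0.0022), lost its call within the set of AST 1, AST 3 and A-iSC 3 (1.40 ± 0.64, adjusted p = 0.0822). In the means, the levels of H2-K1, H2-D1 and B2m were 27.1-fold, 28.5-fold and 25.3-fold higher in A-iSC than in P0-NSC.

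P56-NSC and P0-NSC differed in 6 of the 8 tested genes, all higher in P56-NSC, where 69.2% of all tested genes were called, 35.3% higher and 33.9% lower. H2-K1 (1.98 ± 0.15, limma adjusted p = 2.26e-07), B2m (1.62 ± 0.20, limma adjusted p = 1.67e-05) and Cd74 (2.44 ± 0.41, limma adjusted p = 0.000198) kept their calls under every alternative run, and Cd74 was at 1.84 ± 0.24 without P56-NSC 3 (adjusted p = 6.15e-05). H2-D1, Psmb8 and H2-Ab1 lost theirs when libraries were scaled by total reads (adjusted p = 0.0925, 0.218 and 0.067), Psmb8 also without P56-NSC 3 (0.0732) or P0-NSC 3 (0.064), and H2-Ab1 also without P0-NSC 3 (0.0571), with no filter (0.0519) and in a fit of these groups alone (0.0666). Without P56-NSC 3, H2-Ab1 was at 0.49 ± 0.16 (adjusted p = 0.0187) in place of 1.06 ± 0.36. Tap1 (0.06 ± 0.12, limma adjusted p = 0.697) and Nlrc5 (0.19 ± 0.12, limma adjusted p = 0.178) were not called, but without P56-NSC 2 Nlrc5 was (0.29 ± 0.12, adjusted p = 0.0491).

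Markers of myeloid cells differed between the groups too. All 16 microglia and macrophage markers listed, among them Cx3cr1, Csf1r and C1qa, rose in A-iSC against AST, where 28.1% of all tested genes rose. Ptprc and P2ry12 were below 1 FPKM in every AST library and passed the filter through other groups, so the filter sets part of that count. The summed level of the 16 was 341.5 to 431.6 FPKM in AST, 3245 to 4864 FPKM in A-iSC, 1020 to 1094 FPKM in P56-NSC and 195.5 to 238.9 FPKM in P0-NSC. In P56-NSC against AST, 12 of the 16 rose and 1 fell (37.1% and 37.0% of all tested genes), while 5 of the 6 class I genes fell and Cd74 and H2-Ab1 rose. None of the 16 was at 0 in a whole group. In bulk RNA, a larger share of such cells and more RNA per cell cannot be told apart. The part of the myeloid markers in the MHC results was not tested.

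Within P56-NSC the summed myeloid markers spanned 1020 to 1094 FPKM, while Cd74 spanned 3.45 to 18.5 FPKM. H2-Eb1, another class II beta chain, named here after its values were seen, was at 1.72, 0.833 and 7.90 FPKM in P56-NSC 1, 2 and 3. It was not tested, and was at 0.609 to 0.939 FPKM in AST, 0.454 to 0.787 FPKM in A-iSC and 0.157 to 0.459 FPKM in P0-NSC. Unlike Cd74 and H2-Ab1, H2-Eb1 thus overlapped between A-iSC and AST. The 6 T and NK cell markers summed to 0.434, 0.712 and 1.40 FPKM in these libraries, with Cd3d listed at 0 except in P56-NSC 3 (0.234 FPKM). The 6 markers of border and perivascular macrophages summed to 3.35, 2.16 and 5.22 FPKM, with Lyve1 at 0.296, 0.213 and 0.811 FPKM. Both sums were highest in P56-NSC 3, at low levels, and their part in its class II levels was not tested. The border markers summed to 5.09 to 8.49 FPKM in AST, 49.8 to 70.2 FPKM in A-iSC and 39.1 to 46.8 FPKM in P0-NSC. In A-iSC these sums rest on few genes: Pf4 was at 23.3 to 35.7 FPKM and Ms4a7 at 22.5 to 33.7 FPKM. Of the 6 markers, 3 rose in A-iSC against AST and 0 fell, with a median of 0.33 (28.1% of all tested genes rose and 30.8% fell). Against P0-NSC 1 was higher in A-iSC and 4 were lower (32.6% and 34.7% of all tested genes). Mrc1, Lyve1, Cd163 and F13a1 were below 1 FPKM in every AST and A-iSC library and passed the filter through other groups. The filter thus sets part of these counts.

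The 7 dendritic cell markers summed to 18.6 to 20.4 FPKM in P56-NSC, of which Siglech, which microglia also express, held 17.6 to 19.2 FPKM. They summed to 0.661 to 1.03 FPKM in AST, 1.88 to 2.49 FPKM in A-iSC and 3.80 to 4.09 FPKM in P0-NSC, with Clec9a and Cd209a listed at 0 throughout AST. The 5 B cell markers summed to at most 1.70 FPKM in any library.

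**Figure D4:**
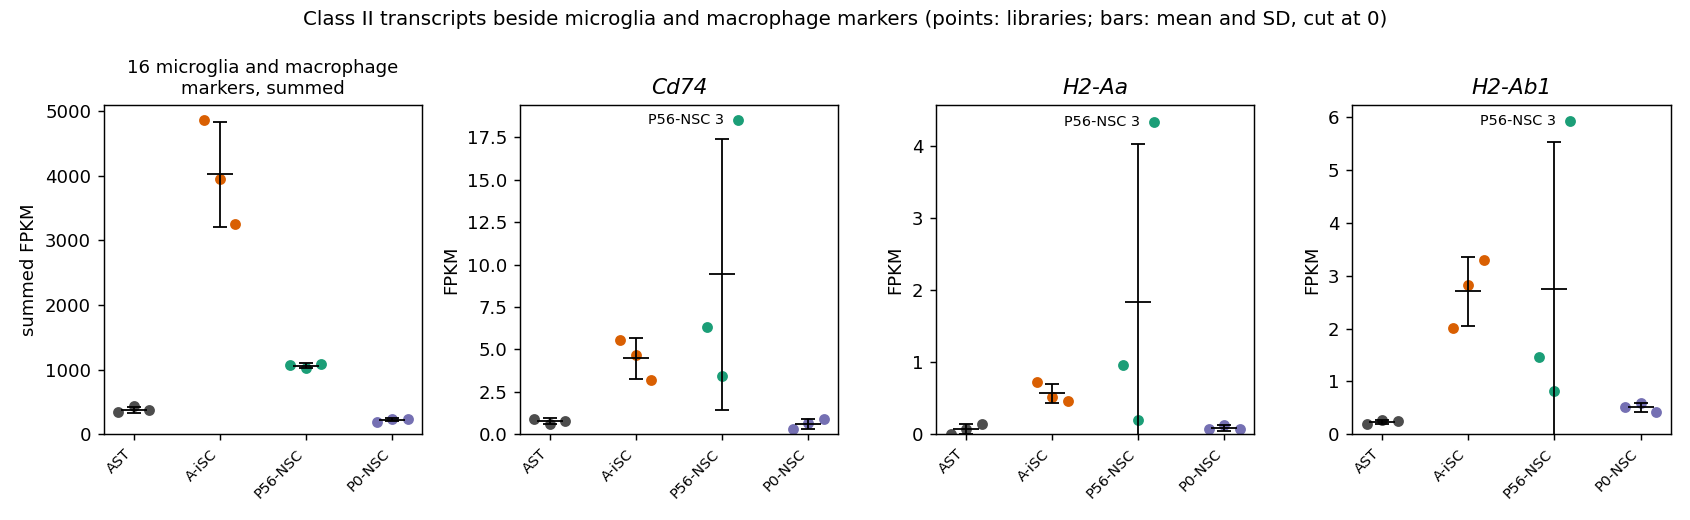
Summed FPKM of 16 microglia and macrophage markers and FPKM of Cd74, H2-Aa and H2-Ab1 (y axes, linear, from 0) in each library (points) by group, with the mean and SD of 3 libraries, and bars cut at 0. The marker sum is alike in the 3 P56-NSC libraries (1020 to 1094), while the class II genes are highest in P56-NSC 3.

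Other genes of the pathway were read in lists. Their counts are to be read against the shares of all tested genes called upward and downward, 28.1% and 30.8% for A-iSC against AST, 37.1% and 37.0% for P56-NSC, and 35.9% and 38.3% for P0-NSC. Of 13 tested class I heavy chains beside H2-K1 and H2-D1, 12 rose and 0 fell in A-iSC against AST, with a median log2 change of 1.60 against 0 for all genes tested. Of the 13, 6 were below 1 FPKM in every AST library (H2-Q5, H2-Q6, H2-Q7, H2-T24, H2-M5 and Cd1d1) and passed the filter through other groups, so the filter sets part of that count and median. H2-T23, whose product Qa-1 presents leader peptides to NK cell receptors, rose by 3.18 ± 0.20, and H2-Q6 by 2.64 ± 0.21 (limma adjusted p = 7.40e-08 and 5.02e-07). Against AST, 5 of the 13 rose and 3 fell in P56-NSC, and 3 rose and 7 fell in P0-NSC. Fcgrt, the neonatal Fc receptor, rose in P56-NSC by 1.64 ± 0.09, and Cd1d1, which presents lipids, rose in P0-NSC by 2.69 ± 0.12 (limma adjusted p = 9.91e-09 and 2.06e-09), while H2-Q4 and H2-T22 fell in both.

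The 11 genes of peptide cutting and loading did not move as a block in A-iSC against AST: 3 rose, 3 fell and 5 were not called, with a median of 0.09. Psmb9, another immunoproteasome subunit, rose by 1.77 ± 0.18, while the chaperones of folding, Pdia3 and Canx, fell by 1.04 ± 0.14 and 1.03 ± 0.24 (limma adjusted p = 4.69e-06, 6.15e-05 and 0.0028). The Canx call ended with quantile normalization (-0.58 ± 0.27, adjusted p = 0.0937). Tap2, the partner of Tap1, was at 0.30 ± 0.17 (limma adjusted p = 0.149) and was not called. In P56-NSC against AST 11 of the 11 fell, with a median of -0.88, where 37.0% of all tested genes fell, and in P0-NSC 10 fell, with a median of -1.56, where 38.3% fell. Of the constitutive catalytic subunits Psmb5, Psmb6 and Psmb7, 2 fell in A-iSC and 3 in each NSC group against AST.

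Of the other class II chains and chaperones, 2 of the 8 in the table were tested. H2-DMb1, a chain of the peptide editor H2-DM, rose in A-iSC against AST by 1.18 ± 0.14 and in P56-NSC by 0.77 ± 0.14 (limma adjusted p = 2.08e-05 and 0.000375), and H2-DMa did not pass in either. Both fell in P0-NSC, where H2-DMb1 was below 1 FPKM in every library and passed the filter through other groups. H2-Ea-ps was listed at 0 in all 12 libraries. This locus is disrupted in the haplotype of C57BL/6 mice.

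The proteases that trim the invariant chain and antigens moved in 1 direction in the spheres. Of 5 tested, 5 rose in A-iSC against AST, with a median of 1.999: Ctss, the cathepsin that removes most of Cd74 in antigen-presenting cells, by 3.69 ± 0.13, Ctsb by 2.41 ± 0.11 and Lgmn by 1.999 ± 0.09 (limma adjusted p = 1.16e-09, 7.21e-09 and 8.10e-09). Ctss was at 67.3 to 80.04 FPKM in AST, 906 to 1046 FPKM in A-iSC, 214.9 to 248 FPKM in P56-NSC and 22.6 to 30.6 FPKM in P0-NSC, the order of the summed myeloid markers. In P56-NSC 2 of the 5 rose and 3 fell, and in P0-NSC 5 fell.

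The costimulatory ligands moved apart. Cd86 rose by 2.17 ± 0.11 and Cd80 fell by 2.01 ± 0.09 in A-iSC against AST (limma adjusted p = 1.13e-08 and 5.47e-09). Cd80 was at 7.02 to 7.12 FPKM in AST and 0.816 to 1.17 FPKM in A-iSC, and Cd86 at 0.309 to 0.441 and 5.06 to 5.61 FPKM. March1, a ubiquitin ligase that removes class II and Cd86 from the surface, rose by 1.66 ± 0.12 in A-iSC against AST and by 2.63 ± 0.12 in P0-NSC against AST (limma adjusted p = 2.18e-07 and 1.76e-09). Cd86 and March1 were below 1 FPKM in every AST library and passed the filter through other groups. For both, a difference from AST was thus built into the filter.

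The enhanceosome and interferon genes gave unlike pictures. Of 7 tested factors that bind the X and Y boxes, 3 rose, 3 fell and 1 was not called in A-iSC against AST: Rfxank by 0.53 ± 0.16, Creb1 by 0.51 ± 0.10 and, downward, Rfxap by -0.50 ± 0.10 (limma adjusted p = 0.014, 0.00124 and 0.00085). The Rfxank call ended without A-iSC 1 (adjusted p = 0.0554) or A-iSC 2 (0.0604), in a fit of the 2 groups alone (0.0578) and within the set of AST 1, AST 3 and A-iSC 3 (0.23 ± 0.16, adjusted p = 0.27). Of 14 tested interferon signalling genes, 12 rose and 0 fell in A-iSC against AST, with a median of 0.50. Irf8, also a factor of the myeloid lineage, rose by 3.04 ± 0.09, Stat2 by 1.36 ± 0.19 and Tyk2 by 0.90 ± 0.12 (limma adjusted p = 5.31e-10, 8.57e-05 and 6.50e-05). Against AST 2 rose and 8 fell in P56-NSC, and 2 rose and 9 fell in P0-NSC. Ifng, the gene of interferon gamma, was listed at 0 in all AST and A-iSC libraries. The plot of the lists sets their members side by side.

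**Figure D5:**
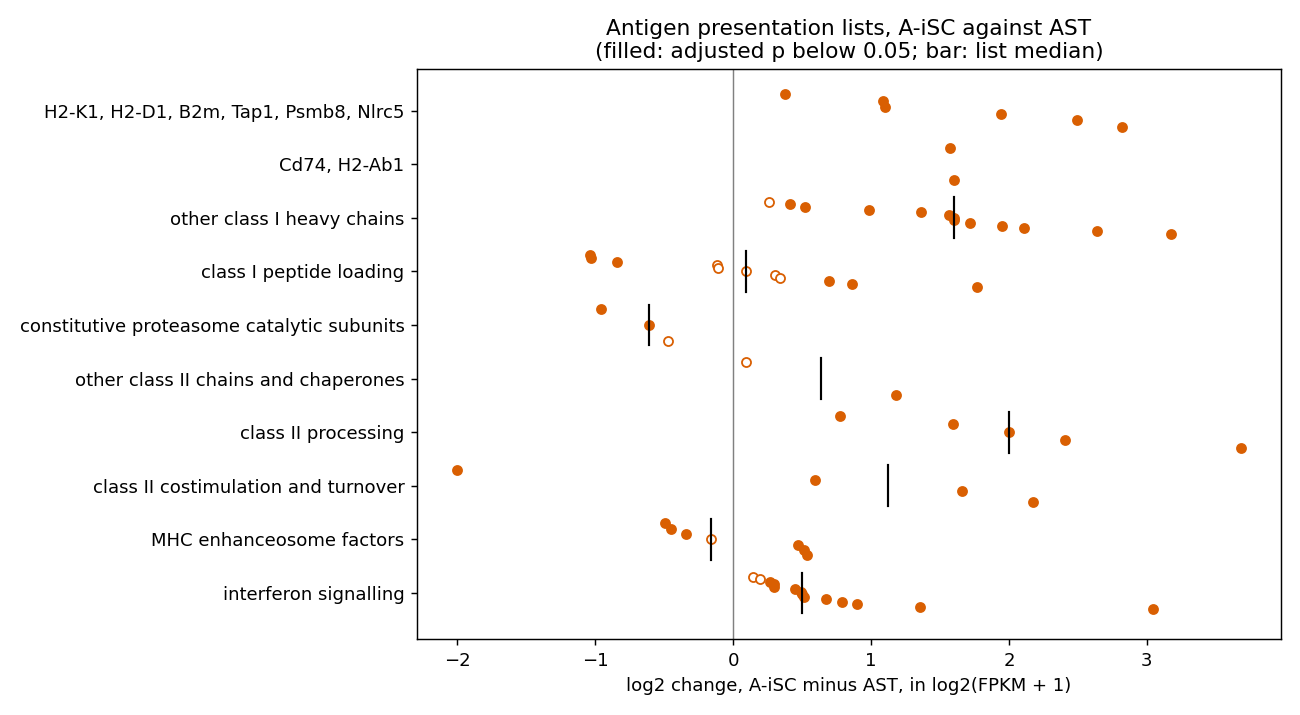
Log2 change in log2(FPKM + 1), A-iSC minus AST (x axis), of each tested gene (points, filled where the limma adjusted p is below 0.05) in the lists of antigen presentation (rows), with the list median as a bar except for the 8 genes of the first rows. Other class I heavy chains and class II processing genes lie to the right of 0, peptide loading and enhanceosome genes on both sides.

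Across the 12 libraries, the class I genes ran together, with Pearson r of log2(FPKM + 1) from 0.78 to 0.99 between pairs, and Cd74 and H2-Ab1 had r = 0.89, while pairs of a class I and a class II gene had r from -0.01 to 0.60. These points share groups and libraries, and r describes them only. Among 9656 or 9657 genes of at least 5 FPKM in a group, those with the profile most like H2-K1 were Mgst1, Slc31a2, Plcg2, Pla2g15 and Npc2 (r = 0.991 to 0.986). Most like Nlrc5 were Ccl5, Phf11d, Cxcl16, Oasl2 and Irf7 (r = 0.996 to 0.991), and most like Cd74 were Aig1, Lrrc51, Spaca9, Evi2a and Selplg (r = 0.930 to 0.918). Ccl5 was at 5.83 FPKM in AST, 87.2 FPKM in A-iSC, 0.704 FPKM in P56-NSC and 0.440 FPKM in P0-NSC in the mean, the order that Nlrc5 had. Selplg was at 0.950, 11.04, 32.04 and 0.501 FPKM in the same groups, with P56-NSC highest, as for the mean of Cd74.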

How the data were processed

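FPKM values per gene and library were deposited, normalized by the authors. The submitters' processing notes list Bowtie 0.12.2, mm8 and mm9, while the table's coordinates are those of GRCm38 (the same for 99.54% of identifiers shared with GENCODE M21). The counting tool and the authors' scaling between libraries are not given in the sources used here. Each deposited FPKM value times gene length gave whole reads, within 0.01 or 1e-5 of the read number, for 100% of values in each library. Entries lacking a name (441, with 0.0957% to 0.156% of reads) were left out of tests. Replicate groups were taken from sample titles.

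In R 4.3.3 with data.table (version 1.17.8), limma 3.58.1 was fitted to log2(FPKM + 1), with a variance trend, on 12 libraries with a mean per group and 6 comparisons. A gene entered if 3 libraries or more reached 1 FPKM, and p-values were two-sided and adjusted by Benjamini-Hochberg over 15747 genes. The fit was tested on simulated data. Alternatives were pseudocounts of 0.1 and 0.5, no filter or 5 FPKM, other scalings, no trend, only the groups compared, subsets of libraries, a replicate block and limma-voom on recovered reads. Per list and comparison, the up to 3 called genes of largest change could be named, and per member the 5 genes most correlated over libraries. Predicted genes were passed over. Some genes the rule takes are not reported here. The members and lists were chosen with earlier results of these data known. Python 3.11.15, numpy 2.4.6, pandas 2.3.3 and matplotlib 3.10.9 made tables and figures. Read numbers limit the precision of low values.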

Additional observations from a re-analysis of the deposited data

How the results depend on the processing

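Under 26 alternatives, 1236 values of the 8 tested genes were recomputed, of which 1207 kept their direction and their side of the threshold, 17 lost a call, 5 gained one and 7 changed sign, in 14 of 48 gene and comparison pairs. The changes of sign were all of values not called in the reported fit. For H2-K1 in P56-NSC against AST these were 0.0614 with quantile normalization and 0.0032 without P56-NSC 2, in a range of -0.28 to 0.0032 over libraries left out in turn. For H2-Ab1 they were -0.11 in P0-NSC against AST with quantile normalization and -0.17 in A-iSC against P56-NSC without P56-NSC 2, in a range of -0.17 to 0.79 over libraries left out. For Tap1 in P56-NSC against P0-NSC they were -0.29 with scaling by total reads, -0.018 without P56-NSC 3 and -0.0014 without P0-NSC 2, in a range of -0.018 to 0.16. Psmb6 in P0-NSC against AST, called in the fit reported, was at 0.021 with quantile normalization. Beside the 2 genes called higher in P56-NSC against AST, a filter of 5 FPKM and the set of AST 2, A-iSC 1 and A-iSC 2 each gave 1, and limma-voom with no filter, which tested all 10 genes and was added after the data were seen, gave 4. In P0-NSC against AST a fit of the 2 groups alone called 1 gene higher (H2-Ab1). In A-iSC against P56-NSC, genes called lower numbered 0 to 1 when each library was left out in turn, and in P56-NSC against P0-NSC genes called higher numbered 4 to 7, and 3 with scaling by total reads. The cause of these changes was not tested.

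The replicate numbers did not pair the libraries: 3 of 18 pairs with the same number deviated together with a correlation above 0.1 (range -0.39 to 0.44), and 3 of 12 libraries correlated best with their own number. With the replicate block the counts of the 8 genes called were the same in all 6 comparisons, and 9149 genes were called in A-iSC against AST in place of 9279. Depth limits Ciita and H2-Aa, with 1 to 50 and 0 to 271 reads a library.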
